A study of Mus musculus with 23 samples.

Results

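The potassium channel genes of mouse striatum are described here: the pore-forming subunits of voltage-gated, inward rectifier, two-pore and calcium- or sodium-activated channels, and the auxiliary subunits that assemble with them. Members were the genes whose probe sets, the short groups of oligonucleotides that stand for a transcript on an Affymetrix array, carry a single gene symbol that starts with Kcn. They were 86 of 20750 genes, on 179 of the 38143 probe sets with 1 symbol, out of 45101 in all. The voltage-gated class held 81 probe sets of 35 genes, the inward rectifiers 31 of 15, the two-pore channels 17 of 12, the calcium- or sodium-activated channels 16 of 8, and the auxiliary subunits 29 of 15. The remaining gene, Kcnq1ot1, is a noncoding RNA with 5 probe sets that carries the name of a channel gene and makes no channel. For 39 genes there was 1 probe set and for 47 there were several.

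The study compared striatal tissue of wild-type mice, labelled WT, with that of mice lacking Ezh1 and Ezh2, labelled dKO, the enzymes that methylate histone H3 in the Polycomb repressive complex. The genotype label of the dKO animals names Ezh1, Ezh2 and a Camk Cre, and WT animals are described as littermates matched for age and sex. Mice aged 6 weeks gave 3 arrays per genotype. Those aged 3 months gave 4 of WT and 3 of dKO, and the oldest, aged 6 months, gave 4 and 6, each array being a biological replicate. The sources used here do not state the alleles or the promoter fragment behind the Cre. Camk2a-driven Cre lines are known to act in forebrain excitatory and medium spiny neurons and not in glia, and which cells of a dKO animal lacked each gene was not measured. Because bulk tissue was measured, fewer cells of a type and less RNA per cell cannot be told apart.

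Potassium channels set the resting potential of a neuron, repolarise it after each action potential and limit how often it fires. Medium spiny neurons, the principal cells of the striatum, are known for a strongly negative resting state held by inward rectifiers of the Kir2 family, and for a slow ramp to the first spike that A-type currents of Kv1 and Kv4 channels delay. Auxiliary subunits such as the KChIP and Kv beta proteins do not form a pore, and change the gating and surface expression of the channels they bind.

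Promoters are shown for 4 genes around which the results turn. Kcnd2 and Kcnd3 encode A-type subunits and had called probe sets in opposite directions at 6 months, Kcnd3 at 1 of 4. Kcnip2 encodes their cytoplasmic partner. The inward rectifier Kcnj12 had a genotype difference above 0 at 6 weeks and 3 months, not called, and below 0 at 6 months, called. Each sequence runs 5′ to 3′ on the strand of the gene from 250 bases before the transcription start to 50 bases after it, and comes from RefSeq on GRCm38.p6. Capitals mark CG dinucleotides, the sites of DNA methylation, whose dense clusters are where Polycomb complexes are known to gather. Kcnd2 lies on the plus strand at chr6:21215096-21215395, Kcnd3 on the plus strand at chr3:105451640-105451939, Kcnip2 on the minus strand at chr19:45816014-45816313 and Kcnj12 on the plus strand at chr11:61065554-61065853.
Kcnd2: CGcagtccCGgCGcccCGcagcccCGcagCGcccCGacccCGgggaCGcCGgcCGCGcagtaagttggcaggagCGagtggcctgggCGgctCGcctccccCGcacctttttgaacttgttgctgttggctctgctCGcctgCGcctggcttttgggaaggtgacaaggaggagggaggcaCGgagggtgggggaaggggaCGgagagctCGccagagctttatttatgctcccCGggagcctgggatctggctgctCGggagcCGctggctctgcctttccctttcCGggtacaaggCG
Kcnd3: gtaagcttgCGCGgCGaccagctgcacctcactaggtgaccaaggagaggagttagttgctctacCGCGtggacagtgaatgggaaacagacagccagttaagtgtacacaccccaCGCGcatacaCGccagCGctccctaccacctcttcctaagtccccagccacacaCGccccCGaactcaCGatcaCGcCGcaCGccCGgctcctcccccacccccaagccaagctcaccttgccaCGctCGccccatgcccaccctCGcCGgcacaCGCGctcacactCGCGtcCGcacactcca
Kcnip2: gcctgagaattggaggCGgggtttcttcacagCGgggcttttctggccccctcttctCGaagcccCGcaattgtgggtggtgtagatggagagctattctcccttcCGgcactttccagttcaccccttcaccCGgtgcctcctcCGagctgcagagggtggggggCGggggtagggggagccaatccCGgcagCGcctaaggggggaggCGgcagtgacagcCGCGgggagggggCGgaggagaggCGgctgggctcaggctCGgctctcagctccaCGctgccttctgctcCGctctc
Kcnj12: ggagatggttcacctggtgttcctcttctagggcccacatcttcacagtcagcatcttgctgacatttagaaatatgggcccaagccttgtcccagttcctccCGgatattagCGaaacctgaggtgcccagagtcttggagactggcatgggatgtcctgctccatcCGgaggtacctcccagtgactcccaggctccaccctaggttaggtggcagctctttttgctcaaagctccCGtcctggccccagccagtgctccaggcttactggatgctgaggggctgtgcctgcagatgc
The Kcnd2 window held 26 CG dinucleotides, that of Kcnd3 25, that of Kcnip2 18 and that of Kcnj12 4. A promoter was found for 63 of the 86 genes, and these had a median of 10 CG dinucleotides against 7 over 27025 promoters of the same length. Median GC content was 58.3% for the channel genes and 52.7% for all. The full cAMP response element TGACGTCA, searched on both strands, was in 0 of the 63 windows and in 1.88% of all promoters. Its core TGACG, which lies within the longer motif, was in 25.4% of the channel promoters and 21.0% of all. The E-box CACGTG was in 6.35% against 7.24%, and the TATA motif TATAAA in 4.76% against 14.2%. The 10 promoters of genes that were lower in dKO at 6 months had a median of 9.5 CG dinucleotides, and the 2 of genes that were higher had 17.5.

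The deposited values are log2 values centred near 0 for each probe set, so they show how arrays differ and not how strongly a gene was expressed. Every difference below is dKO minus WT on that log2 scale unless an age comparison is named, with its standard error (SE) from a limma fit to all 23 arrays, and 1 unit is a doubling. A probe set was called higher or lower at a two-sided Benjamini-Hochberg adjusted p under 0.05 over all 38143 probe sets, and every adjusted p below comes from limma. All 4 probe sets of Ezh1 were lower in dKO at 6 weeks and 6 months, by -2.05 ± 0.34 and -2.10 ± 0.27 (SE) at 1449023_a_at, and 3 of the 4 at 3 months. Ezh2, with 1 probe set, stood at -0.40, -0.45 and -0.43 at the successive ages and was not called. At the Ezh1 probe set 1449023_a_at the library labelled 6wk dKO replicate 3 read 1.47, between the other 6-week dKO arrays (-0.62 and -0.37) and the WT arrays (2.07 to 2.28). Without that library the Ezh1 difference at 6 weeks was -2.70 ± 0.22 there, and Ezh2 stood at -0.53, not called. The 6-week dKO values of the genes described below are followed by the value without it. Arrays of both sexes, told by high or low Xist, were mixed in most groups, but all 3 WT arrays at 6 weeks had low Xist against 1 of 4 at 6 months. Among the 6-week arrays dKO replicate 1 alone had high Xist, so the genotypes of that age were not balanced in Xist.

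At 6 months, potassium channel genes were called lower in dKO striatum more often than higher, and the largest differences lay in Kcnd2 and Kcna4, which encode subunits of A-type currents. Of the 179 probe sets 22 were lower (12.3%) and 5 higher (2.79%), against 8.07% lower and 7.62% higher over all probe sets tested, 15.7% in either direction. These came to 13 genes lower, 3 higher and 2 with probe sets called in each direction, of 86, where 10.9% of all genes were lower and 11.1% higher. The median difference over the 179 probe sets was -0.03, and over all probe sets it was -0.00057. All dKO arrays lay below all WT arrays at 17 member probe sets and above them at 3, 11.2% of the members against 9.99% of all probe sets. The calls of Kcnd2, Kcna4, Kcnv1, Kcnab1, Kcnk2, Kcnj12 and Kcnj5 held under each alternative run and with any array left out. In a fit of the 6-month arrays alone the calls of Kcnd1, Kcng2, Kcnj8, Kcnk1 and Kcnk13 were lost.

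**Figure D1:**
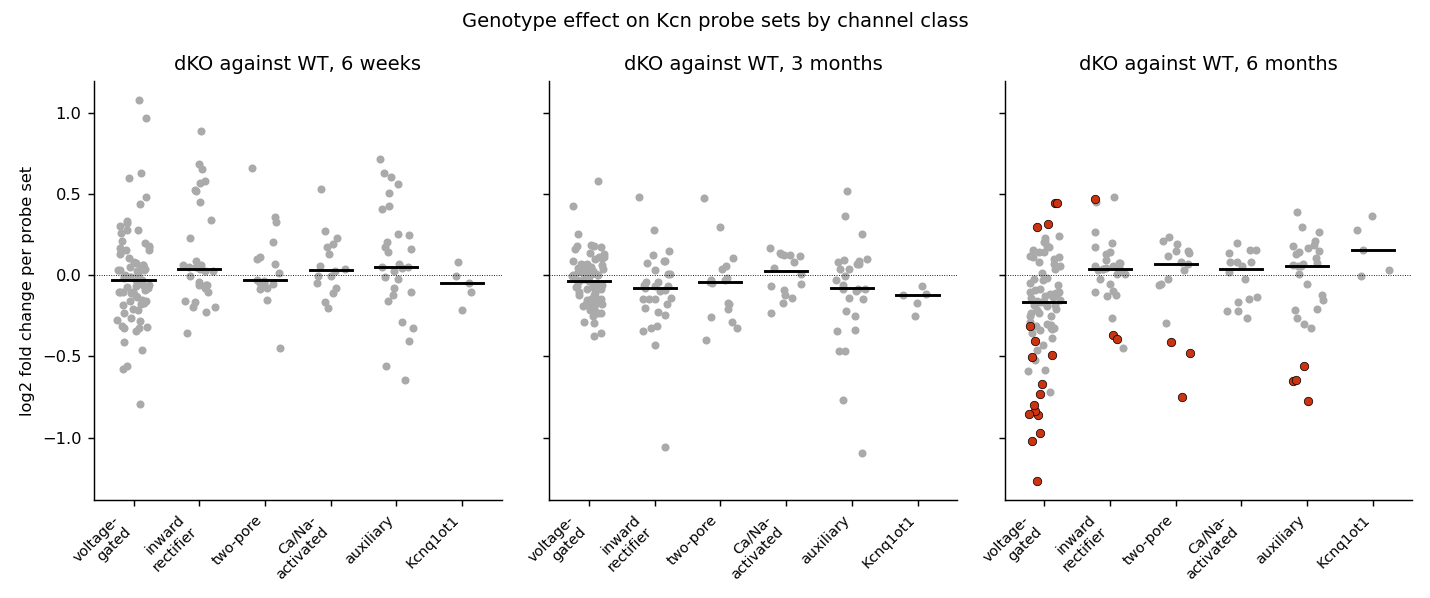
Log2 fold change of dKO against WT (y axis) for each of the 179 probe sets, by channel class (x axis) and age (panels). Points are probe sets, red points those called by limma at adjusted p under 0.05 and black bars class medians. Red points appear at 6 months alone, 5 above 0 and 22 below it, and none among the calcium- or sodium-activated channels or Kcnq1ot1.

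The members called at 6 months are given by class, and the classes were not compared by a test. Over all probe sets 8.07% were lower and 7.62% higher, and over all genes 10.9% were lower and 11.1% higher. The voltage-gated class had 13 probe sets lower and 4 higher of 81, with a median difference of -0.16, and these were 6 genes lower, 2 higher and 2 in both directions of 35. Of the 15 inward rectifier genes 2 were lower and 1 higher, with a median over probe sets of 0.04. Of the 12 two-pore genes 3 were lower and 0 higher, with a median of 0.07. None of the 16 probe sets of calcium- or sodium-activated channels was called by limma, 2 of them having an unadjusted p under 0.05, and their median was 0.04. Of the 15 auxiliary genes 2 were lower, with a median over probe sets of 0.06. Medians of every class but the voltage-gated were thus above 0 while most called probe sets were below it.

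Kcnd2 encodes Kv4.2, a pore subunit of the dendritic A-type current, and showed the largest difference of any member. At 1422834_at the 4 WT arrays at 6 months read 0.64, 0.38, 0.51 and 0.78, and the 6 dKO arrays ran from -1.41 through a median of -0.47 to -0.23. The groups did not overlap, and dKO replicates 1 and 2 lay furthest down. The difference was -1.27 ± 0.21 (SE, n = 4 and 6), with an adjusted p of 0.000309 in limma. At 1450773_at the same animals read 0.24, -0.10, -0.0013 and 0.22 in WT and from -1.02 to -0.72 in dKO, again with no overlap, a difference of -0.97 ± 0.11 with an adjusted p of 2.5e-06 in limma. The probe set 1422835_at was also lower (-0.73 ± 0.10), and 1447764_at, at -0.22 ± 0.10, was not called. Neither earlier age showed a called difference in Kcnd2: at 1422834_at it was -0.33 at 6 weeks (-0.39 without 6wk dKO replicate 3) and -0.08 at 3 months.

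The probe sets of its close relatives in the Kv4 family differed in direction. Kcnd3, which encodes Kv4.3 and can share a channel with Kv4.2, was higher in dKO at 1435720_at, where the WT arrays at 6 months read 0.00, -0.14, 0.02 and -0.27 and the dKO arrays ran from 0.11 through 0.29 to 0.75. All dKO arrays lay above all WT arrays, and the difference was 0.44 ± 0.10 with an adjusted p of 0.00524 in limma. It was of like size at 6 weeks (0.48, adjusted p 0.157, and 0.55 without 6wk dKO replicate 3) and at 3 months (0.42, adjusted p 0.253 in limma), where it was not called though the groups did not overlap either. The other 3 probe sets of Kcnd3 were not called at 6 months and ran from -0.16 to 0.11, and the mean over the probe sets of the gene was 0.08, also not called. Kcnd1, encoding Kv4.1, gave calls in opposite directions, -0.49 ± 0.12 at 1455514_at and 0.32 ± 0.09 at 1446556_at, with -0.33 ± 0.14 not called at 1421538_at.

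The KChIP protein encoded by Kcnip2 binds Kv4 subunits, carries them to the surface and slows their inactivation. At 1425870_a_at the WT arrays at 6 months read -0.21, -0.09, 0.00 and 0.08, and the dKO arrays ran from -1.01 through -0.76 to -0.18. Replicate 1 of dKO lay within the WT range and the other 5 below it. The difference was -0.65 ± 0.14 with an adjusted p of 0.00224 in limma, and 1436275_at was lower too, at -0.56 ± 0.09 (adjusted p 0.000285), while 1421783_a_at was at -0.15 ± 0.10 and not called. The related Kcnip1 and Kcnip4, with 4 and 3 probe sets, had no call and ran from -0.12 to 0.30.

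**Figure D2:**
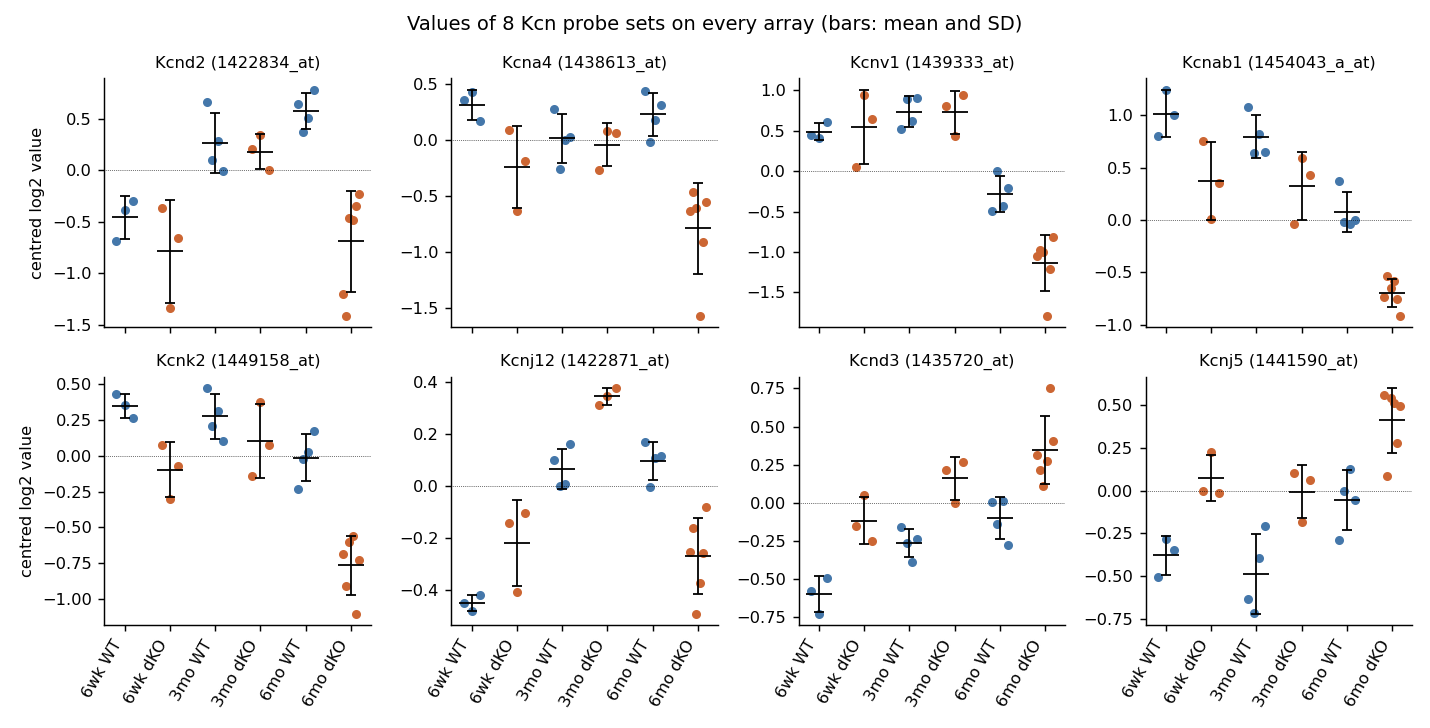
Centred log2 value (y axis) of 8 probe sets on all 23 arrays, by age and genotype (x axis), with WT in blue and dKO in orange. Points are arrays and bars the group mean and SD. Kcnd2, Kcna4, Kcnv1, Kcnab1 and Kcnk2 lie lower in dKO at 6 months with no overlap, the dKO points of Kcnd3 lie above the WT points at every age, and those of Kcnj12 lie above them at 3 months and below them at 6 months.

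Kcna4 encodes Kv1.4, the Kv1 subunit with its own inactivation gate, and Kcnab1 encodes Kv beta 1, which lends such a gate to other Kv1 channels. For Kcna4 at 1438613_at the WT arrays at 6 months read 0.44, -0.02, 0.18 and 0.31, and the dKO arrays ran from -1.57 through -0.63 to -0.47. The groups were apart, dKO replicate 4 lay lowest, and the difference was -1.02 ± 0.17, a level 2.02-fold lower, with an adjusted p of 0.000416 in limma. The other Kcna4 probe set gave -0.86 ± 0.15. For Kcnab1 at 1454043_a_at the WT arrays read 0.37, -0.02, -0.04 and 0.00, with replicate 1 standing above the rest, and the dKO arrays ran from -0.91 through -0.69 to -0.54, below all of them. The Kcnab1 difference was -0.77 ± 0.14 (adjusted p 0.000765 in limma), and 1448468_a_at gave -0.64 ± 0.13. At 6 weeks both genes had negative values, -0.56 for Kcna4 and -0.64 for Kcnab1 at these probe sets, with adjusted p-values of 0.418 and 0.165 in limma. Without 6wk dKO replicate 3 they were -0.59 and -0.64, again not called. From 6 weeks to 3 months the difference changed by 0.50 for Kcna4 and 0.18 for Kcnab1 at these probe sets, neither change being called. The negative 6-week value of Kcna4 was thus for the most part absent at 3 months.

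Among the other Kv1 subunits, Kcna2, which encodes the axonal Kv1.2, was lower at 1 of 3 probe sets (-0.41 ± 0.13, adjusted p 0.0367 in limma). That call was lost when any of 8 arrays was left out and when the values were quantile normalized. Kcna1, with 4 probe sets, had none called and ran from -0.06 to 0.20. Kcna6 reached -0.59 ± 0.20 at 1441049_at with an adjusted p of 0.053 in limma, and Kcna3, known from microglia and lymphocytes, was at -0.25 ± 0.13. Kcnab2, the other abundant Kv beta of brain, read -0.26 and 0.13 at its 2 probe sets, neither called.

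Silent subunits of the Kv5, Kv6, Kv8 and Kv9 families form no channel alone and alter other Kv channels when they join them. Kcnv1, encoding Kv8.1, was lower at all 3 of its probe sets, which gave -0.85 ± 0.17, -0.83 ± 0.10 and -0.80 ± 0.13. At 1439333_at the WT arrays at 6 months read -0.49, 0.00, -0.44 and -0.21, and the dKO arrays ran from -1.79 through -1.02 to -0.81. Every dKO array was below every WT array, with an adjusted p of 0.00177 in limma. Kcns2, encoding Kv9.2, was called lower at 1421342_at (-0.67 ± 0.13) and higher at 1457325_at (0.29 ± 0.08), so no direction is given for the gene. Kcng2, encoding Kv6.2, was higher by 0.44 ± 0.11 (adjusted p 0.00659 in limma), with dKO arrays from -0.03 through 0.38 to 0.50 against WT arrays at -0.32, -0.34, 0.00 and 0.00, so the groups overlapped.

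Kcnq3 encodes a subunit of the M-current, a slow current that acetylcholine suppresses. It read -0.01, -0.26, -0.26 and -0.32 in WT at 6 months and ran from -1.04 through -0.74 to -0.28 in dKO, with dKO replicate 3 inside the WT range. It was lower, at -0.50 ± 0.11 with an adjusted p of 0.00437 in limma, a call that was lost when the values were quantile normalized (-0.33, adjusted p 0.0586). Kcnq5, its relative with 3 probe sets, was not called (-0.34 to -0.03).

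**Figure D3:**
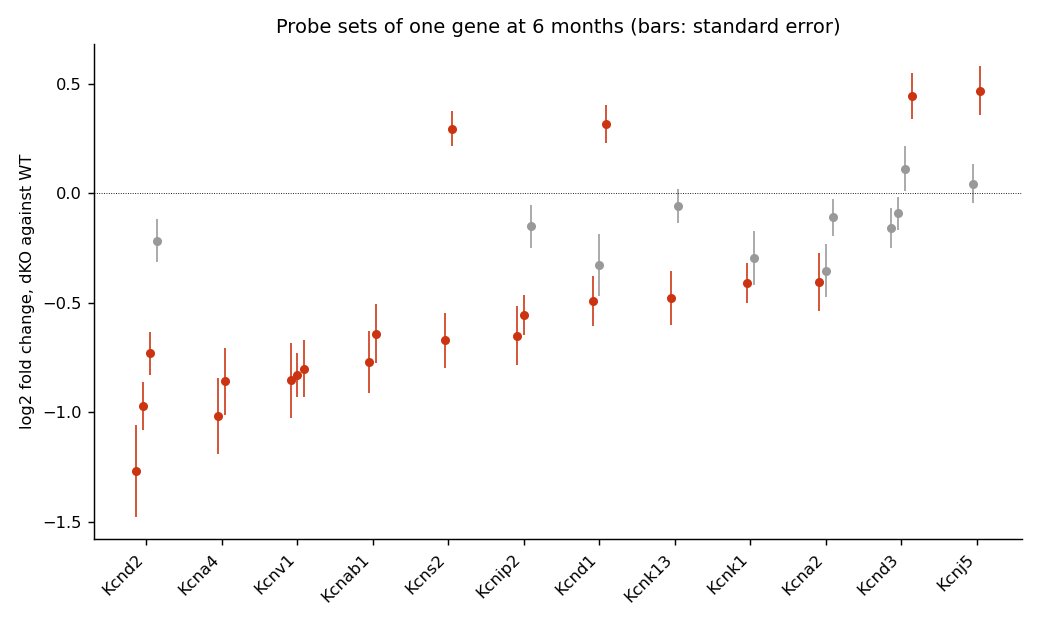
Log2 fold change of dKO against WT at 6 months (y axis, bars are the standard error) for each probe set of the called genes named in the text that have several (x axis). Red points were called and grey points were not. The 3 probe sets of Kcnv1 lie together near -0.8, and those of Kcns2 and Kcnd1 lie on both sides of 0.

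Kcnc1, which encodes a fast Kv3 channel of interneurons, had no call at 6 months and ran from -0.72 ± 0.27 (adjusted p 0.078 in limma) to 0.23. Kcnh3, of the EAG family of forebrain neurons, reached -0.46 ± 0.17 (adjusted p 0.07) and was not called at any of its 4 probe sets. In the calcium- and sodium-activated class, Kcnma1, the pore of the large-conductance channel, ran from -0.14 to 0.20 over 5 probe sets. The small-conductance Kcnn2 stood at -0.14 ± 0.08. The sodium-activated Kcnt1 ran from -0.26 to 0.16. None of these reached the threshold, which does not show that they were alike in both genotypes.

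Kcnj12 encodes Kir2.2, of the inward rectifier family that holds the resting potential of medium spiny neurons. Its 4 WT arrays at 6 months read 0.17, -0.01, 0.11 and 0.11, and its dKO arrays ran from -0.49 through -0.26 to -0.08, with no overlap. It was lower, at -0.37 ± 0.08 with an adjusted p of 0.00246 in limma. At 3 months the order was the opposite, with WT arrays at 0.10, 0.00, 0.01 and 0.16 and dKO arrays at 0.31, 0.35 and 0.38, a difference of 0.28 that was not called (adjusted p 0.384 in limma). At 6 weeks the dKO arrays read -0.14, -0.41 and -0.10 against -0.45, -0.48 and -0.42, a difference of 0.23 (adjusted p 0.473 in limma) that was 0.17 without dKO replicate 3. Among other Kir2 genes, Kcnj2 stood at -0.12 ± 0.09 and Kcnj4 at 0.04 ± 0.14 at 6 months, neither called.

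Kir3 channels are opened by G proteins downstream of dopamine, opioid and other receptors. Kcnj5, encoding Kir3.4, was higher at 1441590_at, where WT arrays at 6 months read -0.29, 0.00, 0.13 and -0.05 and dKO arrays ran from 0.09 through 0.50 to 0.56. Of the 6 dKO arrays only replicate 2 lay within the WT range, and the difference was 0.47 ± 0.11 with an adjusted p of 0.00635 in limma. It was 0.45 at 6 weeks (0.49 without 6wk dKO replicate 3) and 0.48 at 3 months, with adjusted p-values of 0.246 and 0.206 in limma, and 1421762_at showed 0.04 ± 0.09 at 6 months. The Kir3 genes Kcnj3, Kcnj6 and Kcnj9, with 13 probe sets between them, had no call and ran from -0.10 to 0.48.

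Of 8 genes on a list of glial and vascular channels, 2 were lower and 0 higher at 6 months, where 10.9% of all genes were lower and 11.1% higher, and the list was not tested. Kcnj8 encodes Kir6.1, the pore of the ATP-sensitive channel of pericytes and smooth muscle. It read 0.46, -0.04, 0.04 and -0.04 in WT at 6 months, replicate 1 standing far above the others, and ran from -0.52 through -0.23 to -0.16 in dKO. It was lower, at -0.39 ± 0.09 (adjusted p 0.00649 in limma). Abcc9, the sulphonylurea receptor that completes this channel, was lower, at -0.53 ± 0.12. Kcnj10 and Kcnj16, which form the astrocytic Kir4.1 and Kir5.1 channel, stood at -0.13 ± 0.09 and at 0.04 and 0.07, with no call. The microglial calcium-activated Kcnn4 stood at -0.02 and 0.02.

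Of the two-pore channels, which carry background current, Kcnk2 showed the largest difference. It encodes TREK-1, opened by stretch and fatty acids. Its WT arrays at 6 months read -0.23, -0.02, 0.03 and 0.17, and its dKO arrays ran from -1.10 through -0.71 to -0.56, with no overlap, a difference of -0.75 ± 0.12 with an adjusted p of 0.000143 in limma. Kcnk13, which encodes THIK-1, known in microglia, read 0.52, 0.30, 0.46 and 0.35 in WT and ran from -0.41 through -0.09 to 0.31 in dKO, with dKO replicate 1 inside the WT range. It was lower, at -0.48 ± 0.12 (adjusted p 0.00976 in limma) at 1 of 2 probe sets. Kcnk1, encoding TWIK-1, was lower at 1448690_at (-0.41 ± 0.09), and its other probe set was at -0.30 ± 0.12 and not called. Kcnk6 stood at 0.15 ± 0.10.

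**Figure D4:**
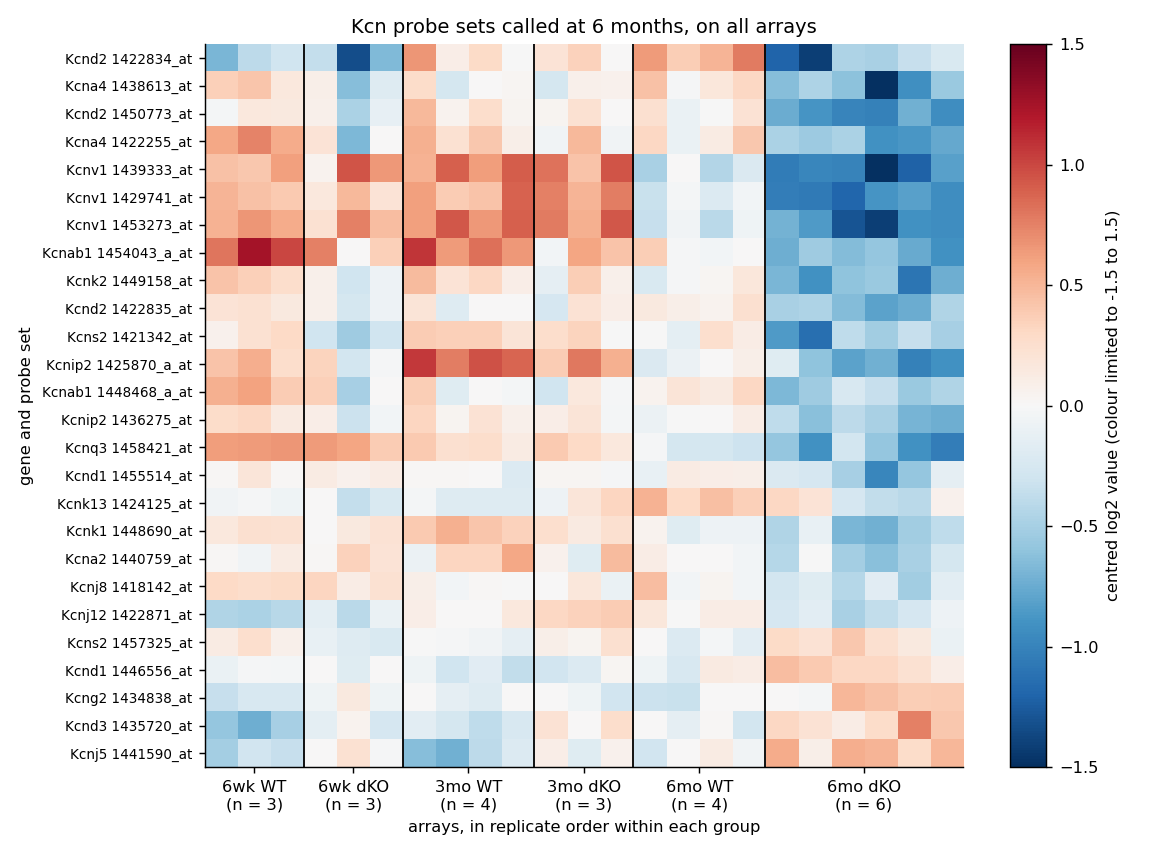
Centred log2 value (colour, limited to -1.5 to 1.5) of the probe sets called at 6 months of genes named in the text (rows) on the 23 arrays in order of age and genotype (columns). Rows above Kcns2 1457325_at are the lower probe sets, blue in most of the 6 dKO columns at the right, and the bottom 5 rows are the higher ones.

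Markers of medium spiny neurons were also lower in dKO at 6 months. Of 18 marker genes 14 were lower and 0 higher, where 10.9% of all genes were lower and 11.1% higher, and the median over the list ran from 0.01 to 0.25 on WT arrays and from -0.63 to -0.39 on dKO arrays, with no overlap. The median difference over the list was -0.52 at 6 months and -0.01 at 3 months. At 6 weeks, when no channel probe set was called, it was -0.50 (-0.49 without 6wk dKO replicate 3) with none of the 18 genes called. List medians of the 6-week arrays overlapped, from 0.22 to 0.40 in WT and from -0.45 to 0.26 in dKO. The lowest, dKO replicates 2 and 3 (-0.45 and -0.20), had the highest cortical marker medians of that age (0.95 and 0.38). The part of dissection in these values was not tested. Of 9 oligodendrocyte markers 5 were lower, of 10 astrocyte markers 3 were lower and 2 higher, of 11 microglial markers 2 were lower, of 8 pericyte and smooth muscle markers 1 was lower, and 0 of 7 endothelial markers were called. Centred values do not tell whether any marker was near 0. The part of cell numbers in the channel differences was not tested. Medians of cortical, thalamic or pallidal and choroid plexus markers differed between arrays of a group, and with them as covariates 19 channel genes were lower and 6 higher.

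Lists of genes that work with these channels are given by their counts at 6 months, beside 10.9% of all genes lower and 11.1% higher, and were not tested. Of 19 scaffold and regulator genes 7 were lower, 2 higher and 1 called in each direction, among them the anchoring proteins Akap9 (-1.35 ± 0.28) and Akap5 (-0.90 ± 0.20) and the ubiquitin ligase Nedd4l (-0.92 ± 0.14). Of 3 pacemaker channel genes Hcn2 was lower (-0.43 ± 0.09). Of 14 pumps and cotransporters 4 were lower and 1 higher: the exchanger gene Slc24a2 was lower (-0.78 ± 0.12) and Slc24a3 higher (0.55 ± 0.09), the pair that was also called at 6 weeks (-0.87 ± 0.15 and 0.65 ± 0.11, and -0.93 and 0.70 without 6wk dKO replicate 3). Of 14 voltage-gated sodium channel genes 4 were lower and 1 higher, with the subunit Scn4b at -0.72 ± 0.13. Of 17 voltage-gated calcium channel genes 5 were lower and 1 higher, with the subunits Cacnb1 at -0.98 ± 0.15 and Cacna2d3 at -0.75 ± 0.11. Medians over the probe sets of these 5 lists ran from -0.19 to -0.11.

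At 6 weeks and 3 months no potassium channel probe set was called by limma, where 0.202% and 0.262% of all probe sets were. An unadjusted p under 0.05 was seen at 36 of the 179 members at 6 weeks (3303 of 38143 overall) and at 15 at 3 months (2472 overall). The lowest adjusted p among members at 6 weeks was 0.106, at Kcna4 (-0.79 at 1422255_at), and the largest value was 1.08 at Kcnc2, a Kv3 subunit, with an adjusted p of 0.392 in limma. Thalamic or pallidal markers had a median difference of 0.51 at that age (0.24 without 6wk dKO replicate 3), 1 of 9 being called higher. Medians of cortical markers ran from -0.62 to 0.02 on the WT arrays and read -0.55, 0.95 and 0.38 on dKO replicates 1, 2 and 3. None of the 8 cortical genes was called. The part of these markers in the channel values was not tested. At 3 months the lowest was 0.206, at Kcnj5. At 6 weeks 20.7% of member probe sets had groups that did not overlap, against 17.5% of all, and at 3 months 9.5% against 9.93%. With limma array weights 20 genes were higher and 10 lower at 6 weeks, a fit in which the library labelled 6wk dKO replicate 3 had a weight of 5.32 and the other 22 arrays weights from 0.356 to 1.87. Without that library no channel gene was called at 6 weeks by limma, with 26 members at an unadjusted p under 0.05, the Kcnc2 value was 0.93, that of Kcna4 at 1422255_at -0.87, and 24.6% of member probe sets against 25.1% of all had no overlap. Without 6wk dKO replicate 1, the only high-Xist array of that age, there were 2 higher and 2 lower.

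The change of the genotype difference with age was tested directly. Between 3 and 6 months it fell in 4 of 86 genes, at 5 of 179 probe sets (2.79%), and rose in none of them by limma. Over all probe sets 1.11% were called, 0.627% lower and 0.488% higher, and over all genes 0.998% were lower and 0.8% higher. Kcnv1 changed by -0.93 ± 0.16 at 1429741_at (adjusted p 0.00329), from 0.10 at 3 months to -0.83 at 6 months. Kcnd2 changed by -0.85 ± 0.17 at 1450773_at (adjusted p 0.0123 in limma), Kcnj12 by -0.64 ± 0.12 (adjusted p 0.00764) and Kcnk13 by -0.77 ± 0.19 (adjusted p 0.0465). The Kcnk13 call was lost when any of 16 arrays was left out. The Kcnd2 call was lost without 3mo dKO replicate 2, when the values were quantile normalized and with a trended and robust variance. The change was called at 1 of 3 probe sets of Kcnv1, 2 of 4 of Kcnd2 and 1 of 2 of Kcnk13. With only the largest-SD probe set of each gene, the Kcnv1 and Kcnd2 calls were both lost.

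Between 6 weeks and 6 months, the difference fell by 0.59 ± 0.12 in Kcnj12 (adjusted p 0.0197) and at the 1457325_at probe set of Kcns2 it rose by 0.62 ± 0.13 (adjusted p 0.0219 in limma), where 0.71% of all probe sets were called, 0.262% lower and 0.448% higher. Neither call was made in the fit of only the groups compared, or without the library labelled 6wk dKO replicate 3, where the values were -0.54 and 0.59. Both were also lost without 6wk WT replicate 1 or 2, that of Kcnj12 without 6wk dKO replicate 1, and that of Kcns2 without 6wk dKO replicate 2 or 6mo WT replicate 2 or 4. Kcnj12 thus had genotype differences of 0.23, 0.28 and -0.37 at the successive ages. Between 6 weeks and 3 months no member changed by limma (20 at an unadjusted p under 0.05), with 0.0105% of all probe sets called. The comparisons at different ages within a genotype share arrays with these, and are given for their own values.

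Within WT striatum, 13 of 86 channel genes were higher and 10 lower at 6 months than at 6 weeks. The 15 higher and 14 lower probe sets are 8.38% and 7.82% of the members, against 6.64% and 9.16% of all probe sets, 15.8% in either direction, and 10% of all genes were higher and 12.9% lower. Kcng4, a silent Kv6 subunit, was higher by 1.52 ± 0.34 (adjusted p 0.00488 in limma), from -1.16, -1.32 and -0.68 at 6 weeks to 0.63, 0.41, 0.56 and 0.25 at 6 months. Kcnd2 was higher by 1.04 ± 0.25 at 1422834_at, and its other 3 probe sets ran from -0.06 to 0.11. The beta subunit Kcnmb2 of the large-conductance channel (0.88 ± 0.20), Kcnip1 (0.86 ± 0.16), Kcnab3 (0.76 ± 0.21), Kcnj12 (0.54 ± 0.09) and Kcnd3 (0.50 ± 0.12) were higher as well. Falls were seen in Kcnab1 (-0.94 ± 0.17), Kcnq3 (-0.85 ± 0.13), Kcnv1 (-0.80 ± 0.15), Kcnf1 (-0.71 ± 0.20) and Kcnq5 (-0.35 ± 0.12). Xist was low on all 3 WT arrays at 6 weeks and high on 3 of 4 at 6 months. With high-Xist arrays alone at 6 months 22 genes were higher and 13 lower. That fit sets low Xist at 6 weeks against high Xist at 6 months, so sex and age cannot be told apart in it. With cortical, thalamic or pallidal and choroid plexus medians as covariates 4 were higher and 4 lower, and of the genes named here Kcnip1, Kcnab1 and Kcnv1 kept their calls. Those 3 calls held under each other alternative and with any array left out. Without 6wk WT replicate 1 there were 6 genes higher and 6 lower. The Kcnq5 call was lost when any of 11 arrays was left out and with the mean of its probe sets (-0.27), that of Kcnf1 when any of 4 was left out, that of Kcnab3 without 6wk WT replicate 1 or 2, that of Kcnd2 without replicate 1 and that of Kcnd3 without replicate 2. With Xist as a covariate the calls of Kcnf1 and Kcnq5 were lost too, and the other genes named here kept theirs. Medians of thalamic or pallidal markers ran from -0.34 to -0.24 on WT arrays at 6 weeks and from 0 to 0.59 at 6 months, with no overlap. The part of sex and of dissection in these age differences was not tested.

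Within dKO striatum, 17 genes were higher and 25 lower at 6 months than at 6 weeks, with 2 more in both directions. The 21 higher and 39 lower probe sets are 11.7% and 21.8% of the members, against 14.8% and 16.9% of all probe sets, 31.7% in either direction, and 20.8% of all genes were higher and 20.4% lower. Kcnv1 changed by -1.69 ± 0.19 (adjusted p 1.33e-06 in limma), from 0.05, 0.95 and 0.65 to a range of -1.79 to -0.81. The sodium-activated Kcnt2 changed by -1.34 ± 0.32, Kcnq3 by -1.25 ± 0.12 and Kcnab1 by -1.07 ± 0.15, and 6 of the 8 calcium- or sodium-activated genes were lower. The rises were smaller: Kcna7, a Kv1 gene known from muscle, at 0.52 ± 0.09, and the two-pore genes Kcnk7 at 0.49 ± 0.10 and Kcnk15 at 0.48 ± 0.09 were the highest. Kcnd2 was lower at 1450773_at (-0.71 ± 0.12) and stood at 0.10 at 1422834_at, where WT had risen. Xist was high on 1 of 3 dKO arrays at 6 weeks and on 4 of 6 at 6 months. Medians of cortical markers were -0.55, 0.95 and 0.38 on dKO replicates 1, 2 and 3 at 6 weeks, and ran from -0.39 to 0.11 at 6 months. With cortical, thalamic or pallidal and choroid plexus medians as covariates the genes named here kept their calls. The part of sex and of dissection in the dKO changes was not tested. Without the library labelled 6wk dKO replicate 3 the counts were 10 higher and 21 lower. The changes were then -1.64 for Kcnv1, -1.19 for Kcnt2, -1.33 for Kcnq3, -1.07 for Kcnab1, 0.56 for Kcna7, 0.48 for Kcnk7, 0.46 for Kcnk15 and -0.68 for Kcnd2, each still called.

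Kcnj13, the Kir7.1 channel, and Kcne2, a small auxiliary subunit, are known from the choroid plexus, which lies in the ventricle beside the striatum. Kcnj13 read 4.74 on 6mo WT replicate 1 and 4.21 on 6mo dKO replicate 2, and Kcne2 read 4.53 and 4.71 on the same arrays, where the median of 9 choroid plexus markers was 2.90 and 2.99. The 3 next arrays by those markers, 6wk WT replicate 2, 3mo WT replicate 1 and 6wk dKO replicate 1, read 3.72, 2.95 and 2.54 for Kcnj13. Arrays with high values were thus found in both genotypes. Neither gene was called at any age, and the Kcnj13 difference at 6 months was -0.45 ± 1.10.

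**Figure D5:**
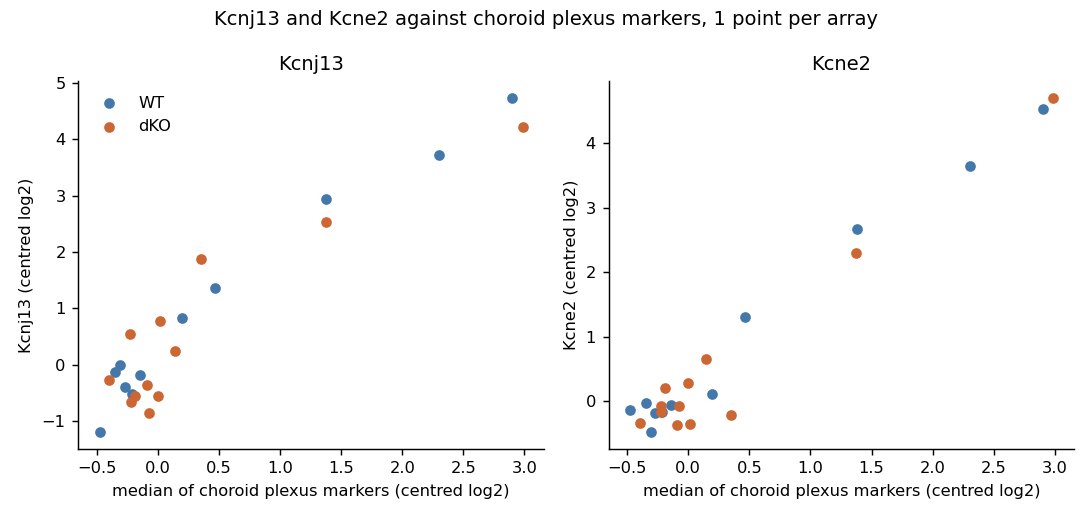
Centred log2 value of Kcnj13 (left) and Kcne2 (right) on each of the 23 arrays (y axis) against the median of 9 choroid plexus markers on that array (x axis), with WT in blue and dKO in orange. The highest points of both panels, above 4, are 1 WT and 1 dKO array at 6 months.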

How the data were processed

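Total RNA of striatal tissue was measured on 23 Affymetrix arrays, 11 WT and 12 dKO, grouped by genotype and age from the sample labels. The deposited log2 values were made by the authors with RMA, per the submitters' processing notes. Its version, the array design and the annotation release are not given in those sources. Among the deposited log2 values, 87.95% of the 45101 probe sets hold an exact 0 on some array, which shows centring per probe set close to the median, so levels and a filter on dim probe sets could not be had. Array medians run from -0.00934 to 0.0152, and the number of arrays limits the precision. Of a second deposited table, 21 columns were identical and 2 columns that share a name were not used. Symbols came from that table: 1253 probe sets have several symbols and 5705 none, and neither kind was tested.

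A mean per group was fitted with lmFit and eBayes of limma 3.58.1 in R 4.3.3 (residual df 17, prior df 4.77), over 38143 probe sets, two-sided, with Benjamini-Hochberg adjustment. A gene is lower or higher where at least 1 of its probe sets was called and none the other way, and the called probe set of largest absolute difference is shown. Named genes are those called at each comparison, or the 12 largest rises and falls where over 24 were called, with the members of a striatal neuron list and a glial and vascular list. Kcnc2, Kcne2 and Abcc9 were named after their values were seen. Results of some members are not reported here, though the counts include them. Members, classes and lists were chosen with earlier results of these data known. The fit was tested on simulated data. Alternatives were quantile normalization, median centring, other probe set choices, a filter on SD, fewer groups, a trended and robust variance, array weights, a replicate block, a threshold of 0.01, Xist as a covariate and leaving out each array. A further 2, high-Xist arrays alone at 6 months and the medians of 3 marker lists as covariates, were chosen after seeing the data. Promoters were matched by symbol.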

Additional observations from a re-analysis of the deposited data

Results flagged for a closer look

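The change of the genotype difference with age passed the test of that change itself in 5 genes. Between 3 and 6 months it was -0.93 for Kcnv1 (1429741_at), -0.85 for Kcnd2 (1450773_at), -0.77 for Kcnk13 (1424125_at) and -0.64 for Kcnj12 (1422871_at). Between 6 weeks and 6 months it was -0.59 for Kcnj12 and 0.62 for Kcns2 (1457325_at). These calls were made at 1 of 3 probe sets of Kcnv1, 2 of 4 of Kcnd2, 1 of 2 of Kcnk13 and 1 of 2 of Kcns2.

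Single WT arrays stood far from the others of their group in 6 of 54 groups of values examined, where chance gives about 1 in 20. At 6 months these were replicate 1 for Kcnab1 (1454043_a_at, 0.37, the highest), for Kcnj8 (1418142_at, 0.46, the highest) and for Kcnd1 (1455514_at, -0.11, the lowest). At 3 months they were replicate 4 for Kcnd1 (1455514_at, -0.21, the lowest) and for Kcns2 (1421342_at, 0.19, the lowest), and replicate 1 for Kcnk13 (1424125_at, -0.025, the highest). Replicate 1 of WT at 6 months was also the WT array with the highest choroid plexus median at that age, 2.90, and the part of that in these values was not tested.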

How the results depend on the processing

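None of the 17 called genes named at 6 months changed direction in 272 values under alternatives, of which 253 kept the call. Of the 23 fits of each gene with an array left out, these values hold only the lowest and the highest. The 17 include Kcnd1 and Kcns2, whose probe sets were called in both directions. Gene counts are given as higher and lower, and the cause of each change was not tested. At 6 months (3 and 13) they were 6 and 19 with cortical, thalamic or pallidal and choroid plexus medians as covariates, 6 and 18 with high-Xist arrays alone, and 3 to 5 and 12 to 16 with each array left out (5 higher without WT replicate 2 or dKO replicate 2). At 6 weeks (0 and 0) they were 20 and 10 with array weights, 0 and 1 with Xist as a covariate or with high-Xist arrays alone, and 0 to 2 and 0 to 2 with each array left out. At 3 months (0 and 0) array weights gave 1 and 0. For the genotype effect at 3 months minus 6 weeks (0 and 0) array weights gave 3 and 9. For 6 minus 3 months (0 and 4) array weights gave 8 lower, the replicate block 1 (Kcnv1), the largest-SD probe set 2, a threshold of 0.01 2, leaving out each array 2 to 5 (2 without 3mo dKO replicate 2), and high-Xist arrays 1 higher. For 6 months minus 6 weeks (1 and 1) higher genes were 2 with array weights and 0 under a threshold of 0.01, the covariate medians, the SD filter, the largest-SD or mean probe set and only the groups compared. Lower genes were 16 with array weights, 6 with high-Xist arrays, 5 with Xist as a covariate, 2 with the mean probe set, and 0 under a threshold of 0.01, the covariate medians, only the groups compared, the replicate block and the trended and robust variance. Leaving out each array gave 0 to 1 and 0 to 5, the 5 without 6mo dKO replicate 2. For WT with age (13 and 10) they were 7 and 6 at a threshold of 0.01, 28 and 16 with array weights, 4 and 4 with the covariate medians, 22 higher with high-Xist arrays, 5 lower with the mean probe set, and 6 to 19 and 6 to 13 with each array left out, lowest without 6wk WT replicate 1 and, for lower genes, also replicate 2. For dKO with age (17 and 25) they were 10 higher at a threshold of 0.01 and 10 to 19 and 19 to 26 with each array left out. Directions that turned were Kcnip2 with age in WT (-0.47 with the largest-SD and -0.11 with the mean probe set), Kcnd2 and Kcns2 with age in dKO (0.10 and -0.24, largest SD) and Kcns2 at 6 months minus 6 weeks (-0.10, largest SD). With the replicate block 2 genes were higher and 10 lower at 6 months, and the calls of Kcna2, Kcnd3, Kcnip2, Kcnj8 and Kcnk13 were lost. Deviations of same-numbered WT and dKO arrays correlated at -0.365 to 0.153 over 10 pairs, 2 of them over 0.1. With so few arrays per group these values cannot decide whether same-numbered animals were paired. Signal over background is not known for centred values, so no limit from depth can be set.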
